A study of Drosophila melanogaster with 33 samples.

Results

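The expression of 7 genes of the apoptotic machinery was followed through eye-antennal imaginal discs of Drosophila melanogaster, the larval epithelia that form the adult eye, antenna and head capsule. They were th (also called Diap1), rpr, grim, skl, Dcp-1, debcl and Buffy, chosen by symbol, and all 7 were found among the 16727 gene symbols measured in 33 libraries. In flies, caspases are held in check by Diap1, a ubiquitin ligase of the inhibitor-of-apoptosis (IAP) family. Death signals induce small proteins, Reaper (rpr), Grim, Sickle (skl) and Hid, that bind Diap1 and release the caspases. Yorkie (Yki), a transcriptional co-activator restrained by Hippo signalling, is known to induce Diap1 together with the DNA-binding protein Scalloped (Sd), and Diap1 is one of its standard reporter genes in imaginal discs.

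RNA came from whole discs 5 days after egg laying, from larvae raised at 25°C, with at least 30 discs pooled per sample, and libraries were built from the 3′ ends of transcripts. The eyFLP wts- group (2 libraries) carried y w ey-FLP and FRT82B cl- over FRT82B wts149, and eyFLP ctrl (3 libraries) carried FRT82B without wts149. Cells homozygous for the cell-lethal cl- chromosome die in both of these groups, which leaves mostly wts mutant or control cells where ey-FLP acts. The optix yki3SA group (2 libraries) expressed UAS-yki3SA, a Yki with altered inhibitory phosphorylation sites, under optix-Gal4 in a w/y v background, and optix ctrl (3 libraries) expressed UAS-lucRNAi under the same driver. The MARCM model marks mitotic clones with GFP. In sequencing run 1 its clones were made on FRT19A against tub-Gal80 FRT19A, with ey-FLP and the Act 5C<y+<Gal4, UAS-GFP chromosome: yki3SA sd- (3 libraries) carried sd47M and UAS-yki3SA, yki3SA (5) carried UAS-yki3SA, sd- (3) carried sd47M and ctrl (5) neither. In run 2, yki3SA sd- (2) and sd- (2) had those same genotypes, but yki3SA (1) and ctrl (2) were made on FRT42D against tub-Gal80, with tub-Gal4 and UAS-GFP. Between sd47M and other groups, run 2 therefore also differs in chromosome arm and driver, which cannot be told apart from sd47M there. Cells outside the clones or the driver's domain remain in the MARCM and optix samples, and in whole discs fewer cells of a type and less RNA per cell cannot be told apart.

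Library totals were 4874192 to 15273835 counts in run 1 and 17071389 to 19128356 counts in run 2. The lowest total belonged to yki3SA sd- replicate 2, which also stood apart in th and debcl, and MARCM sd- replicate 3 stood apart in rpr, Dcp-1 and debcl. Tags of the altered genes did not all follow the genotypes. Those of sd were 276 to 382 CPM (normalised counts scaled to library size) in run 1 sd- discs against 379 to 456 CPM in ctrl discs. In run 1 yki3SA sd- discs sd tags were 254 to 368 CPM, against 616 to 669 CPM in yki3SA discs. Those of wts were higher, at 236 to 269 CPM, in eyFLP wts- discs than in eyFLP ctrl discs, at 166 to 178 CPM. Tags of yki reached 2096 CPM in the single run 2 yki3SA library, against 96.2 to 106.7 CPM in run 2 yki3SA sd- discs. Run 2 comparisons of these groups therefore also differ in yki tag level, and its part was not tested. In run 1, yki tags were 2.63 to 9.93 CPM in yki3SA sd- discs and 43.1 to 78.4 CPM in yki3SA discs. They also varied between run 1 libraries without yki3SA. Their ranges were 18.96 to 58.42 CPM in MARCM ctrl, 1.36 to 68.7 CPM in sd- and 0 to 19.5 CPM in optix ctrl discs. Disc markers (ey, eya, so, dac, Dll, hth) were present in every library, summing to 3242 to 5755 CPM in run 1 and 519 to 1414 CPM in run 2, and 5, 3 and all 6 of them fell in eyFLP wts-, optix yki3SA and MARCM yki3SA discs. Photoreceptor and neuron markers (elav, chp, sev, nSyb, brp, futsch) summed to 118 to 145 CPM in eyFLP wts- discs against 694 to 781 CPM in eyFLP ctrl, to 173 to 194 CPM in optix yki3SA discs against 847 to 962 CPM in optix ctrl, and to 176 to 187 CPM in run 1 MARCM yki3SA discs against 673 to 713 CPM in ctrl. All 6 of these markers fell in each of these comparisons, and in run 1 yki3SA sd- discs they summed to 969 to 1130 CPM. Their part in the results on cell death genes was not tested.

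Of the 7 genes, 5 had enough counts to be tested, and grim and skl did not. The test was edgeR's quasi-likelihood test, and calls were made at an adjusted p under 0.05, with Benjamini-Hochberg adjustment across every gene in the fit. Of the 5, rpr rose in eyFLP wts- discs, where 24% of all genes tested were called (10.6% rose and 13.5% fell). Optix yki3SA discs had a rise of rpr and a fall of th, against a background of 19.5% called (9.02% rose and 10.5% fell). Under MARCM yki3SA rpr fell, with 34.4% of all genes called (17.3% rose and 17.1% fell). No tested member was called in MARCM sd- discs against ctrl (0.101% of all genes called), where 0 of the 5 had an unadjusted p under 0.05 and DESeq2 called 0, nor in yki3SA sd- discs against sd- (0.134%), where debcl alone had an unadjusted p under 0.05, at 0.0109, and DESeq2 also called 0. When yki3SA sd- discs were set against yki3SA discs rpr rose and th fell, with 53% of all genes called (24.9% rose and 28.1% fell), and against ctrl none of the 5 was called (16.7%), although th and debcl had unadjusted p-values of 0.0259 and 0.0235 and DESeq2 called 1 of the 5 (debcl). The shares of members called were 1 of 5 or 2 of 5, and in the comparisons with calls they were read against backgrounds of 19.5% to 53%, so that the number of calls does not set the members apart from other genes.

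**Figure D1:**
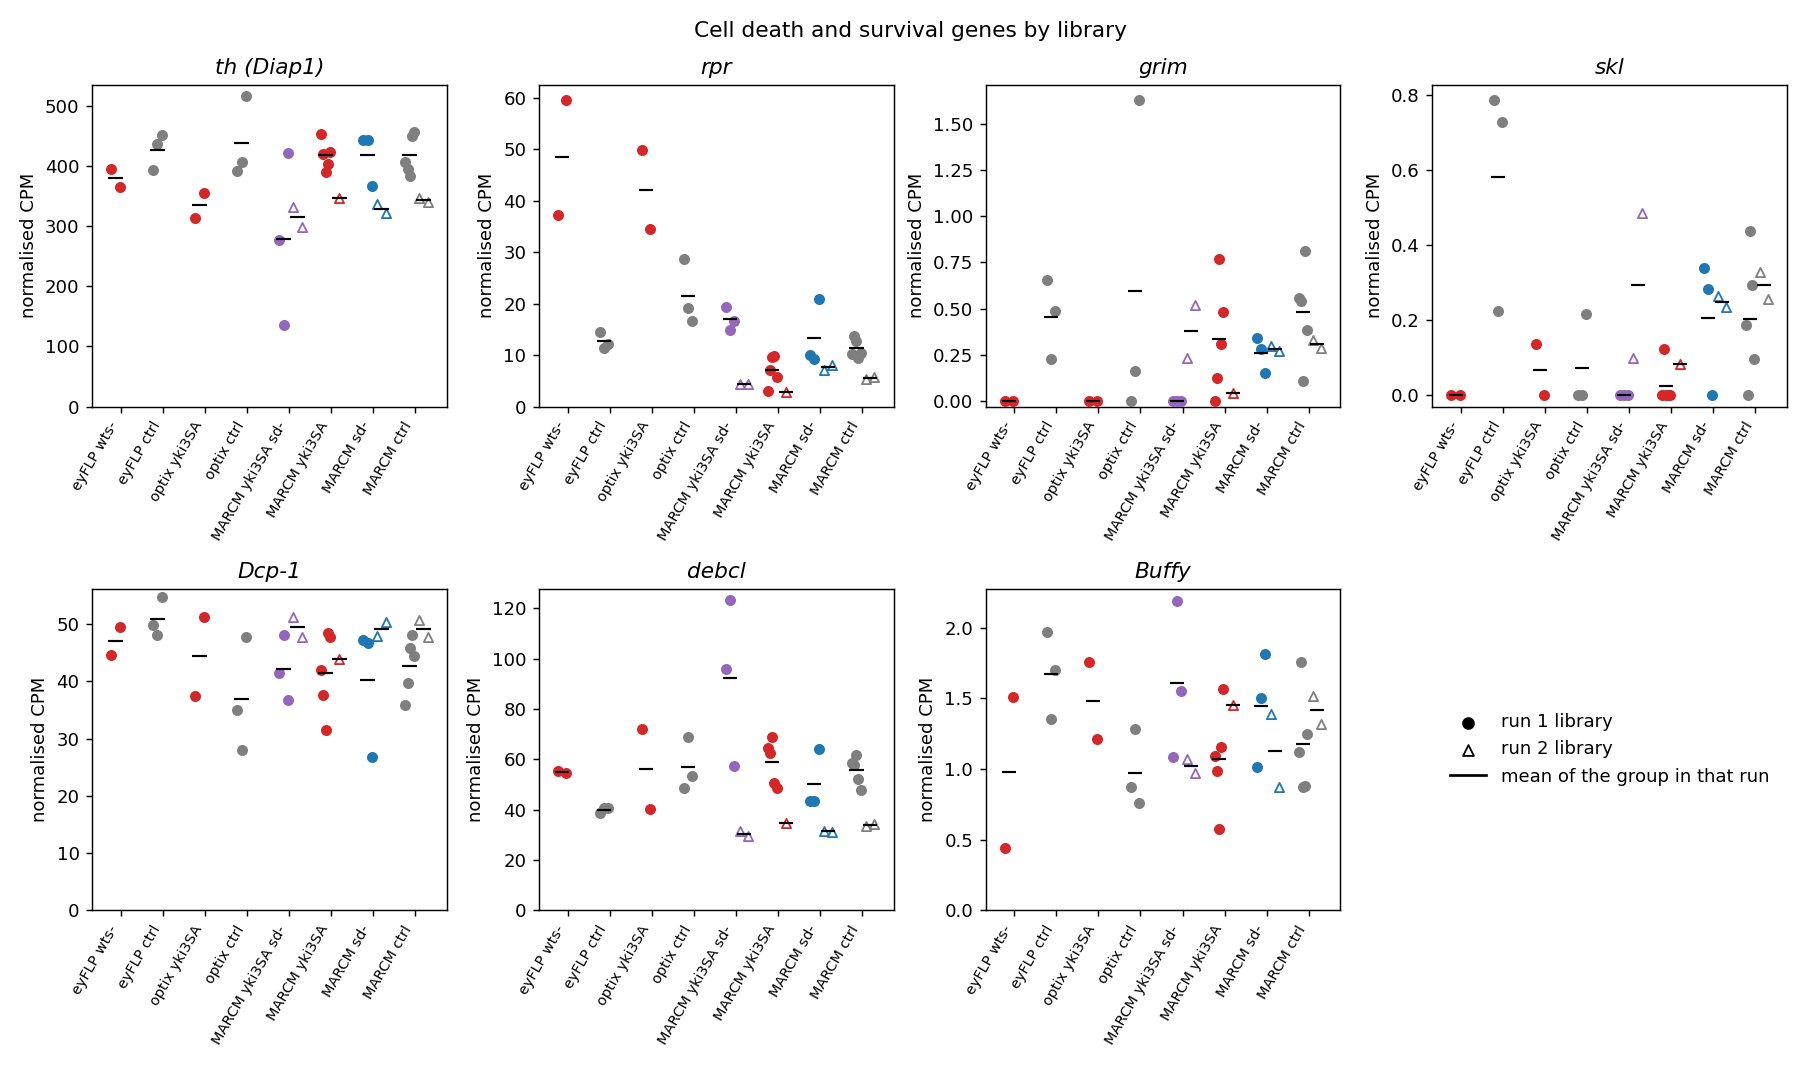
Normalised CPM of the 7 genes in each library (filled circles, run 1; open triangles, run 2; lines, mean of the group in that run), with the panels' y axes on different scales. Levels of rpr in eyFLP wts- and optix yki3SA discs lie above all libraries of their controls, whereas th lies near its control levels in most groups and grim and skl stay under 2 CPM.

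The survival gene th, at 3L:16038410-16051034 on the minus strand (dm6), encodes Diap1 and overlaps an antisense RNA gene in an exon. The MARCM yki3SA discs had 453, 421, 389.8, 403 and 423 CPM of th in run 1 and 346 CPM in run 2. MARCM ctrl discs had 407, 396, 383, 450.5 and 457 CPM in run 1 and 347 and 340.4 CPM in run 2. The 2 sets overlapped within run 1 and stood close together within run 2. The fitted log2 fold change was 0.06 ± 0.16 (SE; 95% interval -0.26 to 0.38; adjusted p = 0.819, edgeR).

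In eyFLP wts- discs th was at 394 and 365 CPM, against 393, 437 and 452 CPM in eyFLP ctrl discs. The ranges overlapped by a narrow margin, and the change of -0.19 ± 0.12 was not called (95% interval -0.43 to 0.05; adjusted p = 0.279, edgeR). The optix yki3SA discs had th at 314 and 356 CPM, against 392, 406 and 516 CPM in optix ctrl discs. Both optix yki3SA libraries lay below the 3 controls, and th fell by 0.40 ± 0.12 on the log2 scale (adjusted p = 0.0195, edgeR). The call was lost without either optix yki3SA library (adjusted p = 0.128 without replicate 1 and 0.0608 without replicate 2) and without ctrl replicate 3, the library at 516 CPM (-0.26, adjusted p = 0.0865), and with the optix libraries fitted alone (adjusted p = 0.264). It held in 6 of 11 alternatives.

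The yki3SA sd- discs had th at 277, 135 and 422 CPM in run 1 and 331 and 298 CPM in run 2. Set against the yki3SA values above, 2 of the 3 run 1 libraries were lower and the third lay inside the yki3SA range. The fitted fall was 0.46 ± 0.18 on the log2 scale (adjusted p = 0.0324, edgeR). It was called in 10 of 19 alternatives and moved with yki3SA sd- replicate 2, the library at 135 CPM: without it the change was -0.17 (adjusted p = 0.148), without yki3SA sd- replicate 1 it was -0.34 (adjusted p = 0.142), and without yki3SA replicate 1 it was -0.43 (adjusted p = 0.0561). The libraries of run 2 alone gave 0.03 (adjusted p = 0.737). The interaction of yki3SA and sd- for th was -0.41 ± 0.24 and was not called (adjusted p = 0.192), with 27.9% of all genes called in that test and none of the 5 tested members, 0 of which had an unadjusted p under 0.05. Against ctrl, th in yki3SA sd- discs changed by -0.40 ± 0.17 and was not called (adjusted p = 0.0874), whereas run 1 alone called a fall (-0.60, adjusted p = 0.0458). In MARCM sd- discs th was at 443, 444 and 367 CPM in run 1 and 337 and 321 CPM in run 2, inside or next to the ctrl values of each run, with a change of -0.05 ± 0.16 (95% interval -0.39 to 0.30; adjusted p = 0.9995, edgeR).

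Other genes known as Yki targets were read beside th. Of 10 tested, 7 rose and 1 fell in eyFLP wts- discs, where 10.6% and 13.5% of all genes did so (median log2 fold change 1.16, against -0.01 over all genes). In optix yki3SA discs 6 rose (9.02% of all genes; median 0.53, against 0.03), and in MARCM yki3SA discs 9 rose (17.3% of all genes; median 1.12, against 0.08). In kibra, an upstream component of the Hippo pathway, the rises were 2.29 ± 0.12, 1.74 ± 0.12 and 3.09 ± 0.12 in these 3 comparisons (adjusted p = 3.27e-12, 4.26e-10 and 1.47e-14, edgeR). Levels of kibra averaged 374 CPM in run 1 of MARCM yki3SA discs, against 52.2 CPM in ctrl. The gene chinmo, which encodes a BTB zinc-finger transcription factor, rose by 4.10 ± 0.29, 1.98 ± 0.27 and 3.14 ± 0.20 (adjusted p = 3.54e-09, 3.86e-05 and 3.04e-11). The expression of ex, which encodes a FERM-domain protein upstream of Wts, rose in eyFLP wts- discs by 1.28 ± 0.18 and in MARCM yki3SA discs by 1.76 ± 0.22, but in optix yki3SA discs its change was 0.15 ± 0.18 (adjusted p = 0.613). The gene that fell in eyFLP wts- discs was E2f, a cell cycle transcription factor gene (-0.51 ± 0.11, adjusted p = 0.00167). The target list was drawn up with earlier results of these libraries known, so its direction is not independent evidence. Between yki3SA sd- and yki3SA discs 8 of the 10 fell, beside 28.1% of all genes (kibra by 2.94 ± 0.14, chinmo by 2.66 ± 0.22, fj by 1.18 ± 0.11), and none of the 10 was called in yki3SA sd- discs against sd- discs, where 1 had an unadjusted p under 0.05.

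**Figure D2:**
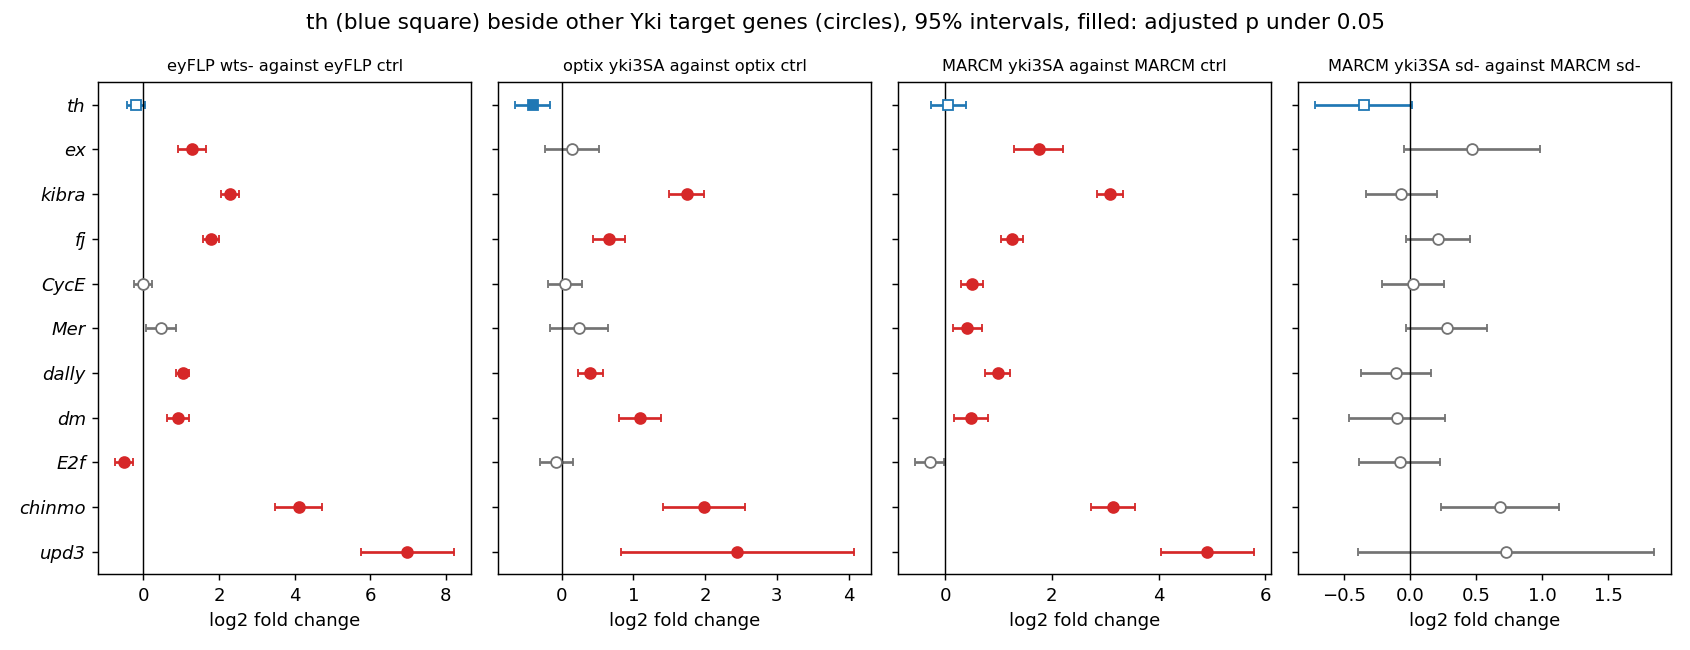
Fitted log2 fold changes of th (blue squares) and of 10 other Yki target genes (circles) with 95% intervals in 4 comparisons, filled where the adjusted p was under 0.05; the x axes differ between panels. In MARCM yki3SA discs 9 of the 10 other targets rose, with th at 0.06; the controls of upd3 hold few counts, so its fitted value is no bound.

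The death inducer rpr, at 3L:18397535-18398435 on the minus strand, encodes a short IAP-binding protein that acts at the top of the fly apoptotic pathway. In eyFLP wts- discs rpr was at 37.2 and 59.7 CPM, against 14.6, 11.4 and 12.1 CPM in eyFLP ctrl discs. Both wts- libraries lay far above every control library. The rise was 1.91 ± 0.33 on the log2 scale (95% interval 1.22 to 2.6; adjusted p = 0.000145, edgeR), and it was called in 11 of 11 alternatives, over which the change ran between 1.54 and 2.24. In the same discs the summed photoreceptor and neuron markers were lower, as given above, and the summed tracheal markers (btl, verm, serp) were higher, at 1168 to 1308 CPM against 447 to 480 CPM in eyFLP ctrl discs, with serp the 1 of the 3 that rose. Their part in the rpr result was not tested.

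Among the optix yki3SA discs rpr stood at 49.8 and 34.5 CPM, against 28.7, 19.1 and 16.6 CPM in optix ctrl discs. The groups did not overlap, although the lower yki3SA library stood close to the highest control. The rise was 0.96 ± 0.33 (95% interval 0.28 to 1.64; adjusted p = 0.0439, edgeR). It was called in 4 of 11 alternatives, with a change between 0.66 and 1.23, and it was lost without optix yki3SA replicate 1 (adjusted p = 0.226), optix yki3SA replicate 2 (0.0545), ctrl replicate 2 (0.127) or ctrl replicate 3 (0.113).

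The direction in MARCM yki3SA discs was the opposite. The yki3SA libraries held 3.09, 7.02, 9.62, 9.84 and 5.78 CPM of rpr in run 1 and 2.86 CPM in run 2. The ctrl libraries held 10.2, 13.7, 12.8, 9.49 and 10.5 CPM in run 1 and 5.40 and 5.65 CPM in run 2. Of the run 1 yki3SA libraries, 3 lay below all 5 controls and the other 2 were level with the lowest control, and in run 2 the single yki3SA library lay below both controls. The fall was 0.71 ± 0.25 on the log2 scale (95% interval -1.24 to -0.18; adjusted p = 0.0341, edgeR). It was called in 12 of 21 alternatives, over which its sign did not change and its size ran between -1.09 and -0.56. Run 1 alone gave -0.68 (adjusted p = 0.102), and the call was also lost without any of 8 single libraries, which were yki3SA replicates 1, 2 and 5, ctrl replicates 2 and 3, the run 2 yki3SA library and either run 2 ctrl library (adjusted p between 0.0534 and 0.0798). Hemocyte markers (Hml, NimC1, Pxn, srp, He, eater) also summed lower, at 4.80 to 10.5 CPM in run 1 yki3SA discs against 34.1 to 48.3 CPM in ctrl discs (5 of the 6 fell), and their part was not tested.

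The differences between models were tested directly in the fit of run 1 libraries. The rpr change in eyFLP wts- discs exceeded that in MARCM yki3SA discs by 2.6 ± 0.42 on the log2 scale (adjusted p = 0.000274, edgeR), with rpr the 1 member called of 5 and 8.51% of all genes called. The change in optix yki3SA discs exceeded that in MARCM yki3SA discs by 1.65 ± 0.41 (adjusted p = 0.00937), again with rpr the 1 member called of 5 and 15.8% of all genes called. Each difference was called in 20 of 20 alternatives. Both use the same MARCM libraries, so they are not independent of each other. The eyFLP and optix changes of rpr were not shown to differ (0.96 ± 0.47, 95% interval -0.03 to 1.94, adjusted p = 0.261), and in that test 8.19% of all genes and none of the 5 members were called, with 0 of the 5 under an unadjusted p of 0.05.

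Levels of rpr in yki3SA sd- discs were 19.3, 14.9 and 16.6 CPM in run 1 and 4.44 and 4.45 CPM in run 2. All 3 run 1 libraries lay above the 5 run 1 yki3SA libraries, and both run 2 libraries lay above the single run 2 yki3SA library. The rise against yki3SA was 1.00 ± 0.27 on the log2 scale (95% interval 0.43 to 1.57; adjusted p = 0.00467, edgeR), called in 19 of 19 alternatives with a change between 0.80 and 1.27. Run 1 alone gave 1.27 and run 2 alone 0.80. Hemocyte markers summed to 92.2 to 199 CPM in run 1 yki3SA sd- discs, beside the yki3SA sums given above (5 of the 6 rose), and their part was not tested. The yki3SA libraries enter both this comparison and the one with ctrl, so the opposite signs of rpr in them share those libraries.

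Against the other 2 MARCM groups the runs gave rpr changes of opposite sign. MARCM sd- discs had 10.04, 9.32 and 20.8 CPM in run 1 and 7.12 and 8.17 CPM in run 2, and replicate 3 was far above the others of its run. Against sd-, yki3SA sd- discs were higher in run 1, by 0.37, and lower in run 2, by -0.77, on the log2 scale. The fit over both runs gave -0.07 ± 0.28 (adjusted p = 0.883), and run 2 alone called a fall (-0.75, adjusted p = 0.0225). The difference between the runs was 1.14 ± 0.53 and did not pass the adjustment (adjusted p = 0.23, edgeR, with 0.448% of all genes called). Against ctrl the run 1 change was 0.61 and the run 2 change -0.31, and the joint value of 0.29 ± 0.26 was not called (adjusted p = 0.411). The interaction of yki3SA and sd- for rpr was 0.64 ± 0.38 (adjusted p = 0.204), so a dependence of the yki3SA effect on sd was not shown for rpr by that test.

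**Figure D3:**
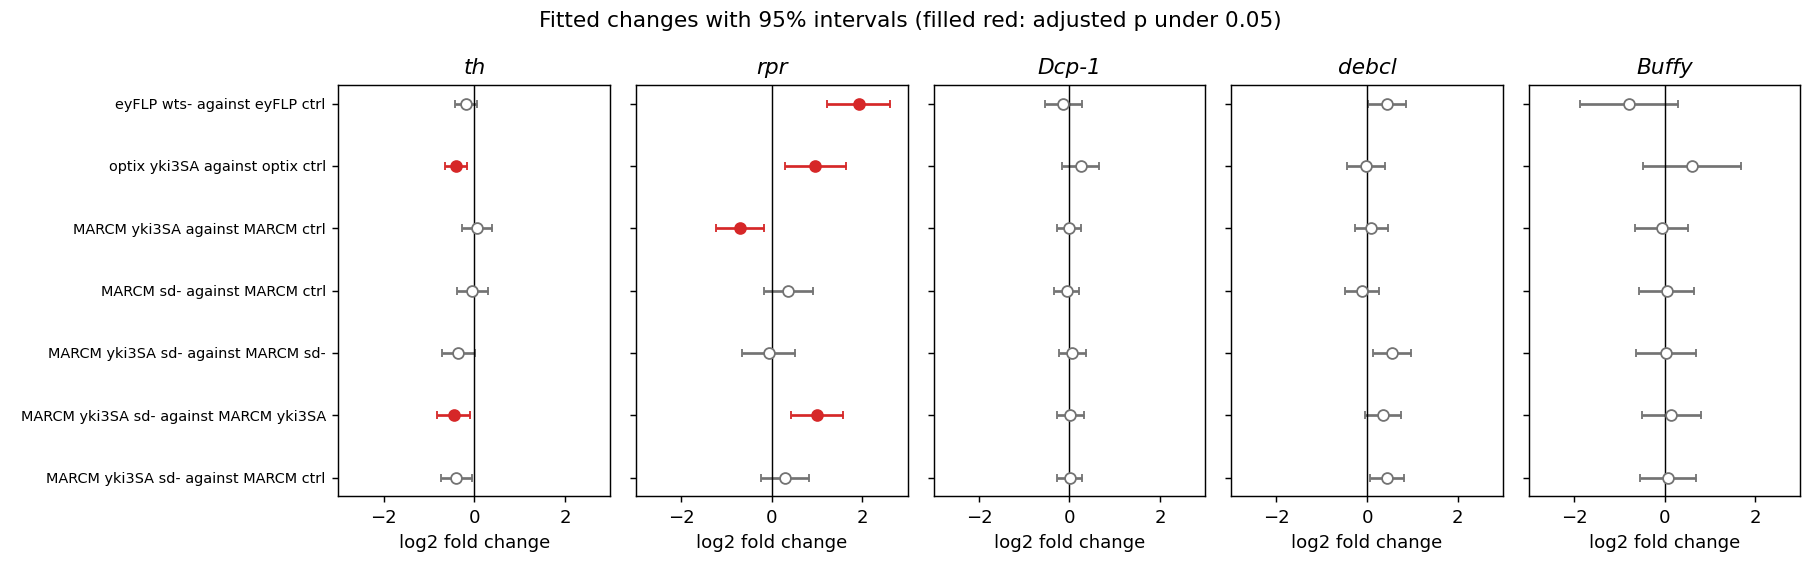
Fitted log2 fold changes of the 5 tested genes with 95% intervals in 7 comparisons; filled red points had an adjusted p under 0.05. The rpr points lie at 1.91 in eyFLP wts-, 0.96 in optix yki3SA and -0.71 in MARCM yki3SA discs, and the Dcp-1 intervals all include 0.

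The IAP antagonists grim (3L:18302719-18304417, minus strand) and skl (3L:18438561-18439942, minus strand) lie in the same chromosomal interval as rpr and were sparse. The level of grim did not exceed 1.63 CPM in any library, and that of skl did not exceed 0.787 CPM. In eyFLP wts- discs both libraries held 0 counts of grim, against 5, 2 and 4 counts in eyFLP ctrl discs, which is at least 2.61-fold lower with a floor of 3 counts over the group (95% counting interval of the ratio 0 to 0.56). The same libraries held 0 counts of skl, against 6, 2 and 6 counts in eyFLP ctrl discs, at least 3.32-fold lower (interval 0 to 0.424). So the 2 libraries with the highest rpr levels of this model had no tag of either neighbour. Both optix yki3SA libraries also held 0 counts of grim, against 0, 1 and 15 counts in optix ctrl discs, at least 3.59-fold lower (interval 0 to 0.385), but 15 of those 16 control counts came from ctrl replicate 3, without which both groups lay under the floor. Counts of skl were too few there, at 1 and 0 against 0, 0 and 2, to compare.

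Counts of grim in MARCM yki3SA discs were 0, 1, 4, 4 and 4 in run 1 and 1 in run 2, against 6, 4, 1, 11 and 4 in run 1 and 10 and 9 in run 2 of ctrl discs. The ratio of pooled CPM was 0.562 in run 1 (95% interval 0.265 to 1.13) and 0.134 in run 2 (0.00323 to 0.845), and these intervals cover counting error only. For skl the yki3SA libraries held 0, 1, 0, 0 and 0 counts in run 1 and 2 counts in run 2, against 2, 0, 4, 4 and 1 counts in run 1 and 10 and 8 counts in run 2 of ctrl discs. The skl ratio was 0.102 in run 1 (0.00237 to 0.703) and 0.284 in run 2 (0.0319 to 1.18). Each ratio of the 2 genes was below 1 in each run, and 1 of the 2 run intervals of each gene included 1.

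Between runs, grim and skl differed in yki3SA sd- discs. Run 1 held 0 counts of each in all 3 libraries, whereas run 2 held 7 and 15 counts of grim and 3 and 14 counts of skl. In MARCM sd- discs grim had 3, 3 and 1 counts in run 1 and 9 and 8 counts in run 2, and skl had 3, 3 and 0 counts in run 1 and 8 and 7 counts in run 2. Run 2 yki3SA sd- and sd- discs were not distinguishable at this depth in either gene, at ratios of 1.32 (0.671 to 2.65) for grim and 1.16 (0.545 to 2.49) for skl. In run 1 the counts of 0 in yki3SA sd- discs gave a 95% counting interval of the ratio to sd- discs from 0 to 0.854 for grim and from 0 to 1.05 for skl, which includes 1. Against ctrl discs the grim interval was 0 to 0.368 in run 1, and the run 2 ratio was 1.21 (0.626 to 2.37). Against yki3SA discs the runs of grim went opposite ways, with 0 to 0.706 in run 1 and a ratio of 9.03 (1.46 to 373) in run 2. That run 2 ratio rests on 1 count in the single yki3SA library, and chromosome arm and driver also differ there. For skl the run 1 interval was 0 to 0.963 against ctrl discs and 0 to 83.9 against yki3SA discs.

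The remaining IAP antagonist of this cluster, hid (listed under its older symbol W, at 3L:18167745-18185641), was read beside them from the list of IAP regulators. Hid, like Reaper, binds Diap1. The MARCM yki3SA discs averaged 239 ± 32.0 CPM of hid in run 1 (SD, n = 5) and 23.9 CPM in run 2, against 312 ± 25.3 CPM (n = 5) and 44.2 ± 13.4 CPM (n = 2) in ctrl discs. The fall was 0.41 ± 0.13 on the log2 scale (adjusted p = 0.0189, edgeR), and without the run 2 yki3SA library it was -0.31 and was not called (adjusted p = 0.0787). Levels of hid in yki3SA sd- discs averaged 386 ± 84.1 CPM in run 1 (n = 3) and 51.4 ± 1.48 CPM in run 2 (n = 2), above yki3SA discs by 0.70 ± 0.15 (adjusted p = 0.000444). The interaction of yki3SA and sd- was called for hid, at 0.65 ± 0.20 (adjusted p = 0.0185, edgeR), in a test where 27.9% of all genes were called. Run 2 alone, with its single yki3SA library, gave 1.06 for this interaction. For hid the change in eyFLP wts- discs was 0.22 ± 0.14 (adjusted p = 0.292) and in optix yki3SA discs 0.09 ± 0.14 (adjusted p = 0.70), and neither was called.

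Dcp-1, an effector caspase gene at 2R:23551313-23553547 on the plus strand, varied little. Its levels were 44.6 and 49.6 CPM in eyFLP wts- discs, against 49.9, 48.1 and 54.8 CPM in eyFLP ctrl discs, and 37.5 and 51.3 CPM in optix yki3SA discs, against 35.1, 27.9 and 47.8 CPM in optix ctrl discs. The MARCM yki3SA discs had it at 42.0, 37.7, 31.5, 48.4 and 47.8 CPM in run 1 and 43.8 CPM in run 2, against 35.8, 39.7, 45.8, 48.1 and 44.5 CPM in run 1 and 50.7 and 47.8 CPM in run 2 of ctrl discs. The groups overlapped in each of these 3 comparisons, apart from the single run 2 yki3SA library, which lay below both run 2 controls. The fitted changes were -0.13 ± 0.19, 0.25 ± 0.20 and -0.01 ± 0.13 (95% interval of the MARCM change -0.28 to 0.25), and none was called (adjusted p = 0.711, 0.404 and 0.951, edgeR). In yki3SA sd- discs Dcp-1 was at 41.5, 48.2 and 36.8 CPM in run 1 and 51.3 and 47.7 CPM in run 2. In sd- discs it was at 47.3, 46.8 and 26.9 CPM in run 1 and 47.9 and 50.4 CPM in run 2, with replicate 3 the lowest of all 33 libraries. The changes in yki3SA sd- discs were 0.07 ± 0.15 against sd-, 0.02 ± 0.14 against yki3SA and 0.00 ± 0.14 against ctrl, and none was called (adjusted p = 0.789, 0.92 and 0.984). Run 2 alone gave Dcp-1 changes of -0.31 in yki3SA against ctrl discs and 0.34 in yki3SA sd- against yki3SA discs. Both rest on the single run 2 yki3SA library, which is assumed to vary like the other groups. The second comparison also differs in chromosome arm and driver in that run. The transcript overlaps an exon of pita on the opposite strand, and strand use in counting was not stated.

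The Bcl-2 family of the fly has 2 members, debcl, which promotes cell death when overexpressed, and Buffy, known mainly for opposing it. In eyFLP wts- discs debcl (2R:6648654-6652842, plus strand) was at 55.5 and 54.5 CPM, against 38.6, 40.5 and 40.5 CPM in eyFLP ctrl discs. The groups did not overlap and each was tight. The joint fit gave 0.44 ± 0.21 and no call (95% interval 0.02 to 0.87; adjusted p = 0.135, edgeR), whereas a fit of the eyFLP libraries alone called it at 0.44 (adjusted p = 0.00523). Optix yki3SA discs had debcl at 71.8 and 40.4 CPM, against 48.6, 68.9 and 53.3 CPM in optix ctrl discs, and the 2 yki3SA libraries lay on either side of the controls (-0.03 ± 0.21, adjusted p = 0.947).

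The debcl levels of yki3SA sd- discs were 96.0, 123 and 57.4 CPM in run 1 and 31.3 and 29.5 CPM in run 2. In yki3SA discs it was at 64.6, 62.6, 68.8, 50.6 and 48.7 CPM in run 1 and 34.8 CPM in run 2. In sd- discs it was at 43.5, 43.6 and 63.9 CPM in run 1 and 31.5 and 31.1 CPM in run 2, and in ctrl discs at 58.5, 57.7, 61.5, 52.3 and 47.7 CPM in run 1 and 33.5 and 34.3 CPM in run 2. Run 1 yki3SA sd- replicates 1 and 2 stood above every other library of debcl, and run 2 showed no such elevation. The joint changes of yki3SA sd- discs were 0.56 ± 0.20 against sd- (adjusted p = 0.18), 0.35 ± 0.19 against yki3SA (adjusted p = 0.124) and 0.44 ± 0.18 against ctrl (adjusted p = 0.0828, edgeR), and none was called. Run 1 alone called all 3, at 0.90, 0.64 and 0.74 (adjusted p = 0.0355, 0.0219 and 0.0165). The difference between the runs against ctrl was 0.91 ± 0.34 and did not pass the adjustment (adjusted p = 0.0999).

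**Figure D4:**
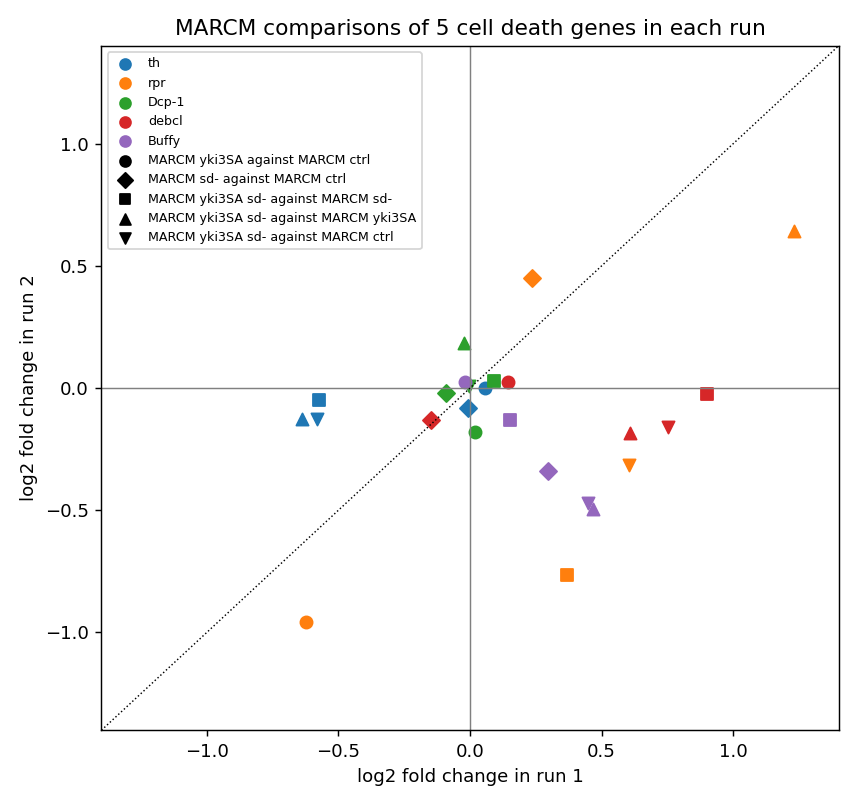
Log2 fold changes of the 5 tested genes in run 1 (x axis) and run 2 (y axis) for 5 MARCM comparisons, coloured by gene and shaped by comparison; the dotted line marks equal values. For rpr, yki3SA against ctrl (-0.62 and -0.96) and yki3SA sd- against yki3SA (1.23 and 0.64) had the same sign in both runs, whereas debcl in yki3SA sd- discs was raised in run 1 and near 0 or below in run 2.

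Buffy (2R:11679492-11688557, plus strand) was low, between 0.444 and 2.19 CPM over the 33 libraries, with 3 to 46 counts each. In eyFLP wts- discs it had 0.444 and 1.51 CPM, against 1.97, 1.35 and 1.70 CPM in eyFLP ctrl discs, and in optix yki3SA discs 1.76 and 1.21 CPM, against 0.875, 1.28 and 0.76 CPM in optix ctrl discs. The groups overlapped in both. The changes were -0.79 ± 0.52 (95% interval -1.88 to 0.30; adjusted p = 0.33) and 0.61 ± 0.52 (-0.47 to 1.69; adjusted p = 0.443, edgeR), and the MARCM changes lay between -0.06 and 0.15. The optix interval of Buffy includes a rise as large as that of rpr in the same discs, 0.96.

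Ordered by run 1 mean, th ran between 278 CPM in yki3SA sd- discs and 438 CPM in optix ctrl discs, and each group overlapped its neighbour in the order except eyFLP wts- (379.8 CPM) and optix yki3SA (335 CPM). For rpr the order was eyFLP wts- (48.4 CPM), optix yki3SA (42.1), optix ctrl (21.5), yki3SA sd- (16.95), sd- (13.4), eyFLP ctrl (12.7), MARCM ctrl (11.3) and MARCM yki3SA (7.07). Only the step between optix yki3SA and optix ctrl separated neighbours without overlap. For debcl the only such step was between MARCM sd- (50.3 CPM) and eyFLP ctrl (39.9 CPM, the lowest), and for Dcp-1 and Buffy there was none. Pearson correlation of log2(CPM + 1) over the 8 group means of run 1, among 6209 genes that reached 10 CPM or more in at least 1 group on average, named the genes most like each member. These were TfIIEbeta (0.974), snRNA:U5:63BC (0.961) and CG2701 (0.956) for th, shot (0.97), rdgA (0.967) and CG3168 (0.958) for rpr, tud (0.926), su(s) (0.915) and Map60 (0.903) for Dcp-1, and CG6689 (0.994), Met (0.984) and CG8405 (0.982) for debcl. The points are 8 means that share library scaling, and the highest of so many correlations are a description.

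The rest of the pathway was read from lists of other genes. Of 10 tested IAP antagonists and regulators, 2 fell in each of the 3 models and none rose (median changes -0.16 in eyFLP wts-, -0.12 in optix yki3SA and -0.07 in MARCM yki3SA discs, beside the medians of all genes given with the Yki targets). Over all genes 13.5%, 10.5% and 17.1% fell in these comparisons, so 2 of 10 is near the background. Traf4, an adaptor protein of TNF and JNK signalling, fell in each, by 0.59 ± 0.19 in eyFLP wts- (adjusted p = 0.0232), by 3.02 ± 0.22 in optix yki3SA (adjusted p = 1.03e-09) and by 1.49 ± 0.16 in MARCM yki3SA discs (adjusted p = 1.17e-07, edgeR). Traf4 averaged 8.85 CPM in optix yki3SA discs, against 71.0 CPM in optix ctrl discs. The call in eyFLP wts- discs was lost without any 1 of the 5 eyFLP libraries (adjusted p between 0.0505 and 0.202). Cul3, a scaffold of ubiquitin ligases, fell by 0.38 ± 0.10 in eyFLP wts- and by 0.31 ± 0.10 in optix yki3SA discs (adjusted p = 0.00878 and 0.0418). The eyFLP call of Cul3 was lost without wts- replicate 1 (adjusted p = 0.118) or ctrl replicate 3 (0.0996), and the optix call without ctrl replicate 1 or 2 or yki3SA replicate 1 or 2 (0.0508 to 0.2298). Between yki3SA sd- and yki3SA discs 5 of the 10 were called, near the 53% called over all genes. All 5 rose (24.9% of all genes rose and 28.1% fell), among them Traf4 (1.90 ± 0.17), Bruce (1.37 ± 0.23), a giant BIR-domain ubiquitin-conjugating enzyme, and hid.

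Of 7 tested apoptosome and caspase genes, 1 rose in eyFLP wts-, 2 in optix yki3SA and 2 in MARCM yki3SA discs, and none fell (medians 0.17, 0.09 and 0.06), beside 24%, 19.5% and 34.4% of all genes called in either direction. Tango7, a translation factor subunit that also acts in the apoptosome, rose in each by 0.40 ± 0.11, 0.32 ± 0.11 and 0.52 ± 0.19 (adjusted p = 0.00806, 0.0419 and 0.0378, edgeR). The MARCM call was lost with the replicate block, by which these samples were taken to pair (0.52, adjusted p = 0.0742, edgeR). It was lost in 17 of 21 alternatives in all, 12 of them leaving out a library (adjusted p between 0.0511 and 0.0779). The optix call of Tango7 was lost without ctrl replicate 2 (0.194), yki3SA replicate 1 (0.0824) or yki3SA replicate 2 (0.164), and the eyFLP call without wts- replicate 2 (0.121). Cyt-c-p (cytochrome c) rose in optix yki3SA discs by 2.27 ± 0.72 (adjusted p = 0.0372), but without yki3SA replicate 2 its change was 0.04 (adjusted p = 0.993), and the call was also lost without ctrl replicate 1 (0.1001) or 2 (0.126). The other gene that rose in MARCM yki3SA discs was AIF, which encodes a mitochondrial flavoprotein, by 0.35 ± 0.09 (adjusted p = 0.00269). Relative to yki3SA discs, where 53% of all genes were called, 4 fell and 1 rose in yki3SA sd- discs: Cyt-c-p fell by 1.82 ± 0.51, Tango7 by 0.89 ± 0.21 and the effector caspase gene Ice by 0.57 ± 0.17. AIF was the other gene that fell, and Ark, the fly counterpart of Apaf-1, rose by 1.13 ± 0.29. For Ice the run 2 libraries alone, scaled by themselves, gave 0.12, of the opposite sign.

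Of 12 tested genes that feed TNF, p53 or stress signals into cell death, 4 rose and 3 fell in eyFLP wts- discs, 2 rose and 1 fell in optix yki3SA discs, and 4 rose and 3 fell in MARCM yki3SA discs (medians 0.19, 0.31 and 0.11), against the same backgrounds of 24%, 19.5% and 34.4%. The TNF ligand egr fell in all 3, by 2.56 ± 0.28, 1.76 ± 0.27 and 1.53 ± 0.22 (adjusted p = 2.61e-07, 4.53e-05 and 5.55e-06, edgeR). It averaged 3.05 CPM in eyFLP wts- discs, against 17.9 CPM in eyFLP ctrl discs. The JNK phosphatase gene puc, a read-out of JNK signalling, rose in eyFLP wts- discs by 1.66 ± 0.14 (adjusted p = 3.89e-09), to 278 CPM against 87.0 CPM in eyFLP ctrl discs. The genes that rose in optix yki3SA discs were hep, which encodes a kinase that activates JNK, by 0.34 ± 0.11, and Xrp1, a stress-response transcription factor gene, by 0.67 ± 0.17, or by 0.19 without yki3SA replicate 2 (adjusted p = 0.595). The hep call was lost without ctrl replicate 2 or 3 or either yki3SA replicate (adjusted p between 0.0514 and 0.141). Corp, which encodes an antagonist of p53, rose in eyFLP wts- discs by 1.99 ± 0.46, a call lost without wts- replicate 1 (adjusted p = 0.0808), and in MARCM yki3SA discs by 3.06 ± 0.31, to 5.31 CPM against 0.6 CPM in run 1 ctrl discs. The stress-induced TORC1 inhibitor genes chrb and scyl fell in MARCM yki3SA discs by 2.29 ± 0.16 and 1.55 ± 0.09 and rose in yki3SA sd- against yki3SA discs by 2.36 ± 0.17 and 1.88 ± 0.10. In eyFLP wts- discs chrb fell too, by 1.44 ± 0.18 (adjusted p = 1.97e-06, edgeR). There scyl averaged 1084 CPM, against 2037 CPM in eyFLP ctrl discs. In optix yki3SA discs chrb averaged 662 CPM, against 712 CPM in optix ctrl discs, and its change there was above that in MARCM yki3SA discs by 2.13 ± 0.21 (adjusted p = 3.83e-07). Levels of Xrp1 were also higher in the other 2 models. They averaged 660 CPM in eyFLP wts- discs, against 290 CPM in eyFLP ctrl discs. In MARCM yki3SA discs they averaged 431 CPM in run 1 and 935 CPM in run 2, against 308 and 406 CPM in ctrl discs.

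Of 7 tested genes for the clearance of dying cells, 1 rose in eyFLP wts- discs (Rac2, a GTPase, by 0.63 ± 0.12), 1 in optix yki3SA discs (mbc, part of a Rac activator, by 0.69 ± 0.19), and 1 rose and 1 fell in MARCM yki3SA discs (Rac2 by 0.42 ± 0.09; the engulfment adaptor gene ced-6 fell by 0.67 ± 0.18). The medians were -0.04, -0.09 and -0.07, and these counts of 1, 1 and 2 of 7 stand beside 24%, 19.5% and 34.4% of all genes called. The optix call of mbc was lost without optix ctrl replicate 1 (adjusted p = 0.0511) or 2 (0.0554) or yki3SA replicate 2 (0.129). In yki3SA sd- against yki3SA discs 4 of the 7 rose and 1, Rac2, fell, beside 24.9% and 28.1% of all genes. The rises were ced-6 by 1.37 ± 0.19, mbc by 0.90 ± 0.19, the scavenger receptor gene crq by 0.74 ± 0.18 and Ced-12 by 0.49 ± 0.14 (adjusted p = 3.81e-06, 0.000639, 0.0018 and 0.00555, edgeR). The hemocyte marker sums given above were higher in the same discs, as were the photoreceptor and neuron marker sums. The part of either in these rises was not tested. No gene of the IAP, apoptosome, stress-input or clearance lists was called in MARCM sd- discs against ctrl or in yki3SA sd- discs against sd-, where 3 and 9 of the 36 tested had an unadjusted p under 0.05.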

How the data were processed

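The authors deposited whole-number counts per gene and library, which were used without further conversion. Per the submitters' processing notes, reads were handled with cutadapt and FastQC and aligned to dm6 with STAR 2.6.1d; how reads were counted, on which strand and with which annotation was not given in the sources used here. Genes that overlap others (th, grim and Dcp-1 in exons) are uncertain. A further deposited table repeats 15 of the libraries with identical counts and was not analysed further. Both eyFLP groups, both optix groups and run 1 of MARCM ctrl and yki3SA were fitted together (20 libraries, 8693 genes tested), and the 23 MARCM libraries together with the run as a term (8927 genes tested), with edgeR 4.0.16 in R 4.3.3 (filterByExpr, TMM scaling, robust quasi-likelihood F test). Standard errors were derived from F and are approximate. Printed CPM use TMM factors over all 33 libraries. Intervals of sparse genes are at 95% and bounds use a floor of 3 counts over the group; they cover counting error only, since reads carry no molecular identifiers here. The scripts were tested on simulated counts. No source states that replicates are separate crosses, so p-values reflect only the spread among samples, which may be technical. The members, the lists and the rule naming up to 4 called genes per list were chosen with earlier results of these data known; of 56 listed genes 52 were found. Gene positions come from the dm6 annotation. Within run 1, all 5 same-numbered pairs of MARCM yki3SA and ctrl libraries deviated together from their group means (correlation 0.125 to 0.388 across genes). These numbers were therefore taken to pair those samples, which comes from the data and not from the labels. Differently numbered pairs were not examined, so the pairing is an assumption. DESeq2 1.42.0, other scalings, no filter, a replicate block, single runs and leaving out each library were alternatives.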

Additional observations from a re-analysis of the deposited data

Results flagged for a closer look

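Of 42 sets of libraries examined, each 1 gene in 1 MARCM group, 4 held a library far from the others by Dixon's criterion. Chance gives this in about 1 of 20 independent sets of like values. That rate does not carry over here, since ctrl and yki3SA entered with both runs and again with run 1 alone. Sets of both runs also pooled runs that differed in level for genes such as rpr. The eyFLP and optix groups had too few libraries to be examined. In MARCM sd- discs rpr was at 20.8 CPM in replicate 3, with the nearest library at 10.04 CPM. In the same library Dcp-1 was at 26.9 CPM, with the nearest at 46.8 CPM. In MARCM yki3SA discs of run 1 skl was at 0.123 CPM in replicate 2, which is 1 count, and at 0 in the others. In yki3SA sd- discs skl was at 0.486 CPM in run 2 replicate 2, with the nearest library at 0.1 CPM.

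The rpr changes differed between models by the test of the difference itself: by 2.6 on the log2 scale between eyFLP wts- and MARCM yki3SA discs and by 1.65 between optix yki3SA and MARCM yki3SA discs. Summed photoreceptor and neuron markers were lower than in controls in all 3 models. Summed tracheal markers were higher in eyFLP wts- and MARCM yki3SA discs (1401 to 1872 CPM in run 1 of the latter, against 378 to 554 CPM in ctrl). Of the 3 tracheal markers, however, 1 rose and 1 fell in MARCM yki3SA discs. The part of these markers was not tested.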

How the results depend on the processing

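Over 1030 recomputed values of the 5 tested genes, 981 kept their call or stayed uncalled, 29 lost a call and 19 gained one. Among values called in either version, 1 changed sign. This was th in yki3SA sd- against yki3SA discs, at 0.029 with the run 2 libraries alone, scaled by themselves. Signs of values uncalled in both versions were not compared. The number of members called (of those tested) changed as follows. In eyFLP wts- discs it was 1, and 2 with the libraries of the model alone. In optix yki3SA discs it was 2, 1 with no filter, 0 with the replicate block, 0 with the libraries of the model alone and 0 to 2 with a library left out. In MARCM yki3SA discs it was 1, 0 with run 1 alone, 2 with run 2 alone and 0 to 1 with a library left out. In yki3SA sd- against sd- discs it was 0, and 1 with run 1 alone (debcl) and 1 with run 2 alone (rpr). In yki3SA sd- against yki3SA discs it was 2, and 1 with DESeq2-type scaling, upper-quartile scaling, no filter, the replicate block or a mean per group and run (chosen after seeing the data), and 1 to 2 with a library left out. In yki3SA sd- against ctrl discs it was 0, 1 with DESeq2, 2 with run 1 alone and 0 to 2 with a library left out. The interaction had 0, and 1 with run 2 alone (Dcp-1). The difference of optix and MARCM changes had 1, 2 with DESeq2 and 1 to 2 with a library left out, and that of eyFLP and optix changes 0, and 0 to 1 with a library left out. The cause of these shifts was not tested; run 1 alone and run 2 alone hold fewer libraries. In MARCM yki3SA against ctrl, replicate numbers were taken to pair the run 1 samples, and the replicate block left rpr called (-0.74, adjusted p = 0.0426, edgeR). Among the members and the other genes named there, the block changed no call except that of Tango7. Elsewhere numbers were not taken to pair the samples: 4 of 21 other MARCM pairs and 0 of 4 eyFLP and optix pairs correlated over 0.1.

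Of 109 called values of other listed genes, 65 kept their call in every alternative run and 44 lost it in at least 1. With run 2 alone, 3 changed sign: HtrA2 (-0.0386) and Ice (0.12) in yki3SA sd- against yki3SA discs, and crq (-0.0705) in yki3SA sd- against ctrl discs. Upper-quartile scaling moved the median change of all genes in MARCM yki3SA discs to -0.03, against 0.08 with TMM, and the rising share of called genes to 38.2%, against 50.2%, and in the interaction the rising share to 65.8%, against 53.6%. Depth limits grim, skl and Buffy, whose counts per library stayed at or below 46.

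Counts of all genes called moved by more than 1.5 times in some alternatives. In optix yki3SA discs 1699 genes were called and 554 with the model alone; in MARCM yki3SA discs 3070, and 5452 with run 2 alone; in sd- discs 9, and 2 with the replicate block and 423 with run 2 alone; in yki3SA sd- against sd- discs 12, with 4 under the replicate block and 1429 in run 1 alone; in yki3SA sd- against ctrl discs 1491, with 17 under the replicate block and 3291 in run 1 alone; and in the interaction 2494, with 4970 in run 2 alone. For the differences of eyFLP and MARCM (740), optix and MARCM (1371) and eyFLP and optix changes (712), counts fell to 423, 756 and 436 with a library left out.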
